A study of Mus musculus with 6 samples.

Results

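The 10 immediate early genes followed here in mouse heart were Fos, Fosb, Fosl2, Jun, Junb, Jund, Egr1, Atf3, Ier2 and Nr4a1. They were chosen by symbol, as genes induced within the first hour of a load or of tissue handling, and all 10 are rows of a table of 24404 genes. RNA was sequenced from 6 heart samples, 3 from wild-type mice (WT-TAC) and 3 from miR-204-/- mice (KO-TAC), which lack the microRNA miR-204. Every mouse had transaortic constriction surgery, a narrowing of the aorta that loads the left ventricle with pressure, and hearts were taken 5 weeks later. No unoperated heart was analysed here, so each comparison is between genotypes after surgery. The strain, age, heart chamber and number of animals per sample are not stated, and p values therefore measure the spread between these samples, which may be technical. The KO-TAC replicate 3 column carries in its header the number of WT-TAC replicate 3 and was assigned by its library index, so fold changes are also given without it. In that library Cacna1h, a calcium channel gene that separates the genotypes in these data, stood at 5.91 CPM (counts scaled to a common library size), against 1.90 and 5.59 in the other KO-TAC libraries and 27.9 to 56.1 in WT-TAC. Over genes with at least 50 counts in a pair of libraries, however, KO-TAC replicate 3 was nearer to WT-TAC replicate 3 (median chi-square 2.999 between their counts, the lowest of all pairs of libraries) than to the other KO-TAC libraries (5.94 and 5.99).

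Immediate early genes are switched on by signalling kinases acting on transcription factors that are already in the cell, so they need no new protein to be transcribed. FOS and JUN proteins pair through leucine zippers into AP-1, which binds DNA as a dimer; FOS proteins need a JUN partner, whereas JUN proteins can also pair with one another. EGR1 is a zinc finger factor, NR4A1 an orphan nuclear receptor, ATF3 a stress-induced member of the ATF and CREB family, and IER2 a small nuclear protein induced with them. In the heart these transcripts are known to rise quickly and briefly after a mechanical load, ischaemia, adrenergic stimulation or the handling of tissue, and most of them are short-lived.

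Upstream sequences of Fos, Fosb and Nr4a1, whose levels varied widely between libraries, are shown for the motifs they hold. The windows are the 250 bases before the transcription start in RefSeq (GRCm38.p6), 5' to 3' on the strand of the gene. Capitals mark matches, on either strand, to the CRE half-site TGACG, which reads CGTCA on the other strand and is bound by CREB and ATF factors, and to the EGR site GCGNGGGCG, and on the strand of the gene to the TATA box TATAAA. Jun is shown as a gene of the group whose level varied less and whose window held no exact match. Junb is not shown. Its level varied about as little (highest library 1.82 times the lowest, against 1.79 for Jun), yet it had a CRE half-site 106 bases before its start. Whether motifs go with the spread between libraries was not tested.
Fos, chr12:85473640-85473889, plus strand: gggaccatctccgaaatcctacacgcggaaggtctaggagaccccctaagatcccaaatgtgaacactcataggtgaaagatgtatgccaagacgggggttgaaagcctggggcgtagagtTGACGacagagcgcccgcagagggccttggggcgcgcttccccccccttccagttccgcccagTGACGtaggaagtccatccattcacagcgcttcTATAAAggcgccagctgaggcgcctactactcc
Fosb, chr7:19310046-19310295, minus strand: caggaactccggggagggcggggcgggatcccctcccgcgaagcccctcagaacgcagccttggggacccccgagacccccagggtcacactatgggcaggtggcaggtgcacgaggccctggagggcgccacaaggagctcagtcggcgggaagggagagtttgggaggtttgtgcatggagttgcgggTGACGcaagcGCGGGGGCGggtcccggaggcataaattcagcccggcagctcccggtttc
Nr4a1, chr15:101266596-101266845, plus strand: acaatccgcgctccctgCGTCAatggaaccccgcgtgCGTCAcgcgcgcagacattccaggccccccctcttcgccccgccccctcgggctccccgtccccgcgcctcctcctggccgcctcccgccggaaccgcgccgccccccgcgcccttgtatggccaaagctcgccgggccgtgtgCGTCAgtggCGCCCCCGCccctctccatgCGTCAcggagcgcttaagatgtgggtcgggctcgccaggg
Jun, chr4:95052223-95052472, minus strand: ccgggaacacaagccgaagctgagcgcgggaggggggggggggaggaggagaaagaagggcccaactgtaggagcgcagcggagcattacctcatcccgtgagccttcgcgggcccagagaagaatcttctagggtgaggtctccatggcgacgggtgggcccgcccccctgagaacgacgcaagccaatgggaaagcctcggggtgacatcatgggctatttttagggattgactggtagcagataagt
The Fos window had CRE half-sites starting 129 and 66 bases before the start and a TATA box 33 bases before it. Fosb had a CRE half-site 60 bases and an EGR site 50 bases before the start. Nr4a1 had 4 CRE half-sites, at 233, 213, 69 and 40 bases, and an EGR site at 60 bases. Of the 8 genes searched, 5 had a CRE half-site (Fos, Fosb, Junb, Atf3 and Nr4a1), against 17.9% of 27025 upstream windows of the same length and 27.4% of the 9460 windows of tested genes. An EGR site was found in 3 (Fosb, Fosl2 and Nr4a1), against 4.65% of all windows and 8.86% of those of tested genes, and a TATA box in 1, against 8.12% and 3.81%. The full CRE TGACGTCA, the AP-1 site TGAGTCA and the CArG box, bound by SRF, had no match in the 8 windows, against 1.62%, 4.43% and 1.40% of all windows and 2.76%, 2.90% and 1.24% of those of tested genes. A match is a string of letters and not a measured binding site. The absence of a match covers these 250 bases only, since sites farther upstream or after the start were not searched. Egr1 and Ier2 were not searched. The Jund window ended at base 70697738 of chromosome 8, upstream of the gene start at 70698949 in GENCODE M21. The windows of Fosl2, Atf3 and Nr4a1 lay inside the gene as annotated there. Those genes start at base 32135801 of chromosome 5 (Fosl2), 191218039 of chromosome 1 (Atf3, minus strand) and 101254269 of chromosome 15 (Nr4a1).

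The microRNA that the labels give as deleted in KO-TAC is shown for its seed. The mature form maps to plus-strand bases 22750610 to 22750631 of chromosome 19 (RefSeq, GRCm38.p6), and its seed, bases 2 to 8, is in capitals.
mmu-miR-204-5p: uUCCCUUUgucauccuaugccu
The matching site, AAAGGGA, was present in the longest annotated 3' UTR of 1 of the 10 genes, Egr1, against 18.1% of 11692 tested genes with such a UTR. Its log2 fold change, given with its levels below, was −0.60 ± 0.64 (SE), KO-TAC over WT-TAC.

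Libraries held 6411538 to 8571737 counts, and the 10 genes together took 377, 530 and 263 CPM of unscaled totals in WT-TAC replicates 1, 2 and 3, and 356, 361 and 249 in KO-TAC. The highest sum was in WT-TAC replicate 2 and the lowest in KO-TAC replicate 3, and the groups overlapped. WT-TAC replicate 2 was also the deepest library (8571737 counts), followed by KO-TAC replicate 2 (8494415), and the part of depth in these levels was not tested. Cardiomyocyte markers (10 genes) summed to 78742 to 93298 CPM in the WT-TAC hearts and 73539 to 103698 in the KO-TAC hearts, and all 10 were detected. Libraries came from whole tissue, so fewer cells of a type and less RNA per cell cannot be told apart.

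**Figure D1:**
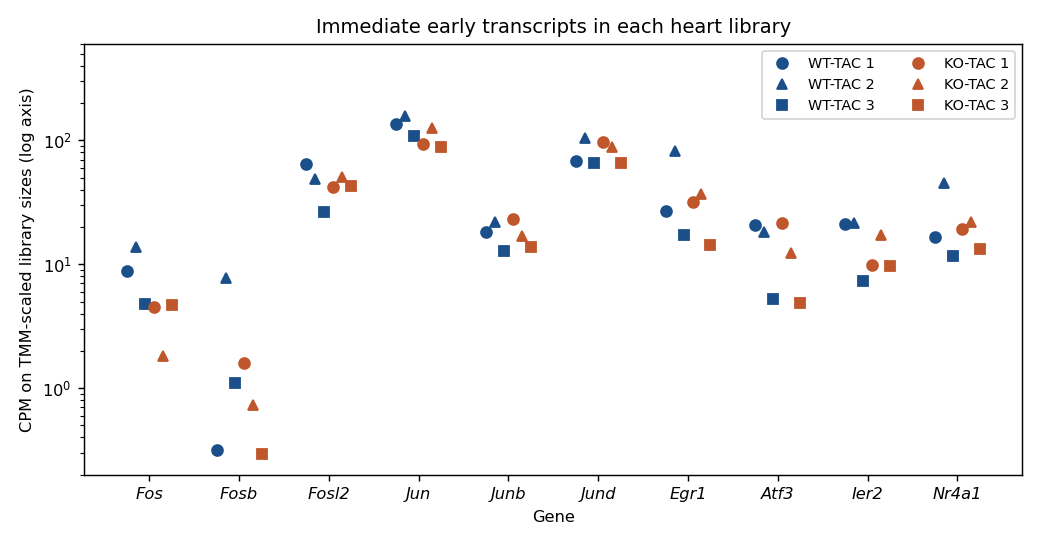
CPM of each of the 10 genes (log axis) in each library, with WT-TAC in blue and KO-TAC in orange and the replicate number as the marker shape. WT-TAC replicate 2 (blue triangle) stands above the other 5 libraries for Fos, Fosb, Egr1 and Nr4a1, at 13.9, 7.69, 81.5 and 45.4 CPM.

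None of the 10 genes passed the test between genotypes. Of the 9 that could be tested, 0 were called at an adjusted p under 0.05 in edgeR's quasi-likelihood test, beside 0.0240% of 12487 tested genes (3). Fos alone had an unadjusted p under 0.05, as did 2.93% of all tested genes. DESeq2 and limma-voom also called 0 of the 9, each with 1 at an unadjusted p under 0.05. The log2 fold change (KO-TAC over WT-TAC) was below 0 for 7 and above 0 for 2, with a median of −0.39, beside 49.8% of all tested genes below 0 and a median of 0.0012. That median rested on single libraries. It was 0.0045 without WT-TAC replicate 2, with 4 genes lower and 5 higher, and −0.69 without WT-TAC replicate 3, with 10 of 10 lower, Fosb then passing the filter. Without KO-TAC replicate 3 it was −0.28, with 7 of 10 lower. All 9 adjusted p values were 0.999.

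The FOS family held the gene with the lowest p. Fos, the prototype of the family, is a plus-strand gene of chromosome 12, bases 85473890 to 85477273 (GENCODE M21, GRCm38). It stood at 8.81, 13.9 and 4.79 CPM in the WT-TAC libraries and 4.53, 1.82 and 4.73 in KO-TAC. Each KO-TAC library was below each WT-TAC library, but the gap between WT-TAC replicate 3 and KO-TAC replicate 3 was 35 against 32 counts. The exact 95% Poisson intervals of these counts, 24.4 to 48.7 and 21.9 to 45.2, overlap and cover counting error only. The groups failed to overlap for 1 of the 9 tested genes, Fos, and for 7.98% of all tested genes (3.72% lower in KO-TAC). The means were 9.16 ± 4.56 CPM in the WT-TAC hearts and 3.69 ± 1.62 in KO-TAC (SD, n = 3). That is a log2 fold change of −1.32 ± 0.50 (SE), or 0.400 times (95% interval 0.189 to 0.849 before adjustment). The unadjusted p of edgeR's quasi-likelihood test was 0.0206 and the adjusted p 0.999. Leaving out each library in turn gave log2 values from −1.63 to −0.88 (without WT-TAC replicate 2).

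The summed level of 10 erythroid and platelet markers was 88.3 to 195 CPM in the WT-TAC hearts and 36.9 to 77.3 in KO-TAC, so the sums did not overlap. Of the 4 that could be tested, 4 had log2 fold changes below 0 (median −1.72) and 0 were called, beside 0.0240% of all tested genes. The groups did not overlap for 2 of the 4, beside 7.98% of all tested genes. All 4 had an unadjusted p under 0.05 in edgeR, as did 2.93% of all tested genes. The median was −0.91 without WT-TAC replicate 1. Their defining adult globin genes, Hba-a1, Hba-a2, Hbb-bs and Hbb-bt, were listed at 0 in every library. The part of these cells in the level of Fos was not tested. Neutrophil markers (8 genes) summed to 2.33 to 30.5 CPM in the WT-TAC hearts and 6.20 to 14.5 in KO-TAC, which overlapped.

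Fosb, whose protein and its shortened form ΔFosB also pair with JUN proteins, had 11 counts or fewer in 5 of 6 libraries. It had 2, 67 and 8 counts in WT-TAC and 11, 6 and 2 in KO-TAC, so that WT-TAC replicate 2 held 67 of 96 counts. In CPM these were 0.315, 7.69 and 1.10 in WT-TAC and 1.61, 0.729 and 0.296 in KO-TAC. The groups overlapped, and the exact Poisson interval of 67 unscaled counts, 51.9 to 85.1, lies above the intervals of the other 5 libraries, the highest of which reaches 19.7. Fosb did not pass the filter on low counts and was not tested with all libraries. Where an alternative let it in, its adjusted p was 0.925 to 1.00.

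Fosl2, which encodes the FOS-related protein FRA-2 and is slower and longer-lasting than Fos, had the highest mean level per length of the family. It stood at 64.0, 48.8 and 26.4 CPM in the WT-TAC hearts and 41.9, 50.7 and 43.1 in KO-TAC. The WT-TAC libraries spanned the whole range, and all KO-TAC libraries fell inside it. KO-TAC was 0.976 times WT-TAC (95% interval 0.648 to 1.47), a log2 fold change of −0.03 ± 0.27 (SE).

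JUN family genes varied less between libraries, with the highest library 1.59 to 1.82 times the lowest, against 2.42 for Fosl2 and 7.62 for Fos. Jun, the main AP-1 partner of FOS, is a single-exon, minus-strand gene of chromosome 4, bases 95049034 to 95052222. It stood at 136, 158 and 108 CPM in the WT-TAC hearts and 93.2, 125 and 88.1 in KO-TAC. KO-TAC replicate 2 was above WT-TAC replicate 3, so the groups overlapped, while the other 2 KO-TAC libraries were the lowest of the 6. The means were 134 ± 25.2 and 102 ± 20.1 CPM (SD, n = 3). KO-TAC was 0.763 times WT-TAC (95% interval 0.562 to 1.04), a log2 fold change of −0.39 ± 0.21 (SE; unadjusted p = 0.0791, adjusted p = 0.999 in edgeR), and with 1 library left out it stayed below 0, from −0.56 to −0.25.

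Junb, a weaker activator that can restrain JUN, stood at 18.2, 21.9 and 12.7 CPM in the WT-TAC hearts and 23.2, 17.0 and 13.7 in KO-TAC. For Junb the log2 fold change was 0.03 ± 0.30 (SE), and the 95% interval of the fold ran from 0.654 to 1.59. Jund, the subunit that most resting cells express steadily, stood at 67.8, 104 and 65.9 CPM in the WT-TAC hearts and 97.0, 88.6 and 66.2 in KO-TAC. For Jund the log2 fold change was 0.08 ± 0.22 (SE), and the 95% interval of the fold ran from 0.756 to 1.48. For both genes the libraries of the genotypes interleaved. Exons of Jun, Junb and Jund overlap those of genes on the other strand (Junos over 232 bases, Prdx2 over 173 and Gm11175 over 877), and the strand of the reads is not known. Prdx2, a peroxidase gene, stood at 119 to 215 CPM, above Junb in every library, and its reads over the shared bases cannot be told apart from those of Junb.

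The load-responsive factors Egr1 and Nr4a1 had 1 library well above the rest. Egr1 stood at 26.9, 81.5 and 17.1 CPM in the WT-TAC hearts and 31.6, 37.2 and 14.3 in KO-TAC. WT-TAC replicate 2 was 3.70 times the mean of the other 2 WT-TAC libraries and 2.19 times the highest KO-TAC library, and the remaining 5 libraries overlapped. The means were 41.8 ± 34.7 and 27.7 ± 11.9 CPM (SD, n = 3). The log2 fold change was −0.60 ± 0.64 (SE), with a 95% interval of the fold from 0.230 to 1.90, and it turned to 0.34 without WT-TAC replicate 2.

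For Nr4a1 the 4 highest libraries came in the same order as for Egr1. It stood at 16.7, 45.4 and 11.6 CPM in the WT-TAC hearts and 19.3, 21.9 and 13.3 in KO-TAC. WT-TAC replicate 2 was 3.21 times the mean of the other 2 WT-TAC libraries and 2.08 times the highest KO-TAC library. Across genotypes the log2 fold change was −0.44 ± 0.45 (SE), with a 95% interval of the fold from 0.370 to 1.46, and it turned to 0.36 without WT-TAC replicate 2.

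Atf3 and Ier2 were about as high in WT-TAC replicate 1 as in replicate 2. Atf3, a repressor and activator induced by cell stress, stood at 20.8, 18.2 and 5.20 CPM in the WT-TAC hearts and 21.6, 12.3 and 4.88 in KO-TAC. Its lowest levels were in KO-TAC replicate 3 and WT-TAC replicate 3, and the other libraries of both genotypes overlapped. For Atf3 the log2 fold change was −0.19 ± 0.59 (SE), and the 95% interval of the fold ran from 0.350 to 2.20. Ier2 stood at 21.2, 21.7 and 7.40 CPM in the WT-TAC hearts and 9.94, 17.1 and 9.60 in KO-TAC, with the lowest value in WT-TAC replicate 3. For Ier2 the log2 fold change was −0.45 ± 0.40 (SE), and the 95% interval of the fold ran from 0.402 to 1.33.

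**Figure D2:**
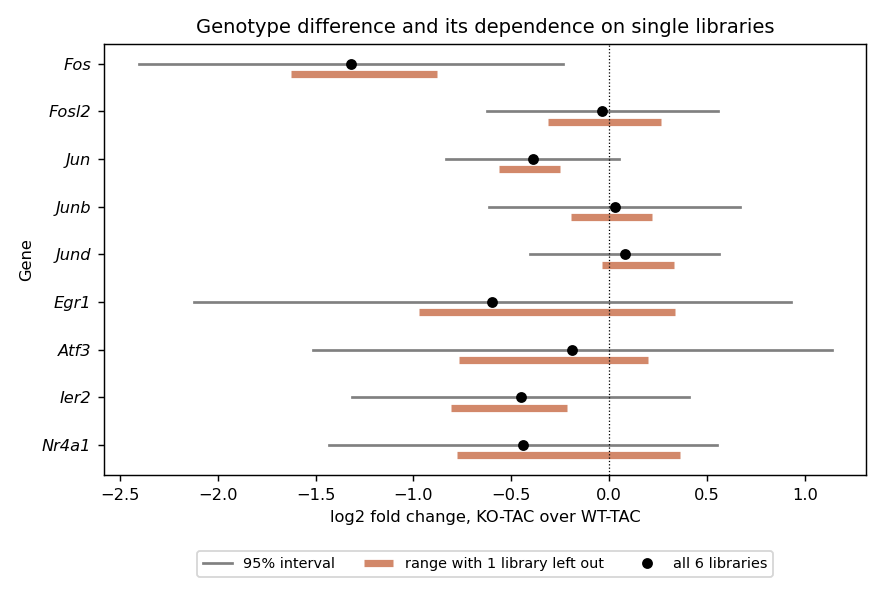
Log2 fold change of KO-TAC over WT-TAC for the 9 tested genes (dots), its 95% interval from edgeR's quasi-likelihood fit (grey) and the range of the estimate with 1 library left out (orange). Fos, Jun and Ier2 stayed below 0 whichever library was left out, and the estimates of Egr1 and Nr4a1 ran from −0.97 to 0.34 and from −0.78 to 0.36.

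Without KO-TAC replicate 3, the library whose header number differs from its label, no gene of the group was called. The log2 values were then −1.54 for Fos, −1.40 for Fosb, which passed the filter in that fit, −0.00049 for Fosl2, −0.29 for Jun, 0.19 for Junb and 0.22 for Jund. They were −0.29 for Egr1, −0.26 for Nr4a1, −0.31 for Ier2 and 0.20 for Atf3, the last of which changed sign.

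The high and low libraries were largely the same across the genes. On log2 CPM centred on each gene's mean, the 9 tested genes averaged 0.27, 0.74 and −0.57 in WT-TAC replicates 1, 2 and 3, and 0.07, −0.01 and −0.49 in KO-TAC. The widest distance was thus between libraries of the same genotype, WT-TAC replicates 2 and 3. WT-TAC replicate 2 was the highest library for 6 of the 9 (Fos, Jun, Jund, Egr1, Ier2 and Nr4a1), as it was for 12.7% of all tested genes. The lowest library was WT-TAC replicate 3 for 5 of the 9 and KO-TAC replicate 3 for 3, against 14.8% and 20.3% of all tested genes. Fos was the exception, with its lowest level in KO-TAC replicate 2.

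The spread between libraries was wide for these genes. The highest library exceeded the lowest by a median of 2.93 times over the 9 genes, beside 1.91 times over all tested genes. WT-TAC replicate 2 was at least 2 times the mean of the other WT-TAC libraries for 3 of the 9 (Fos, Egr1 and Nr4a1), as for 3.24% of all tested genes. The biological coefficient of variation in edgeR was 0.525 for Egr1, 0.492 for Atf3, 0.409 for Fos and 0.381 for Nr4a1. At the same abundance the fitted trend gave 0.227, 0.286, 0.377 and 0.251. For Jun (0.198), Jund (0.212) and Junb (0.260) it was close to the trend of 0.202, 0.205 and 0.264.

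**Figure D3:**
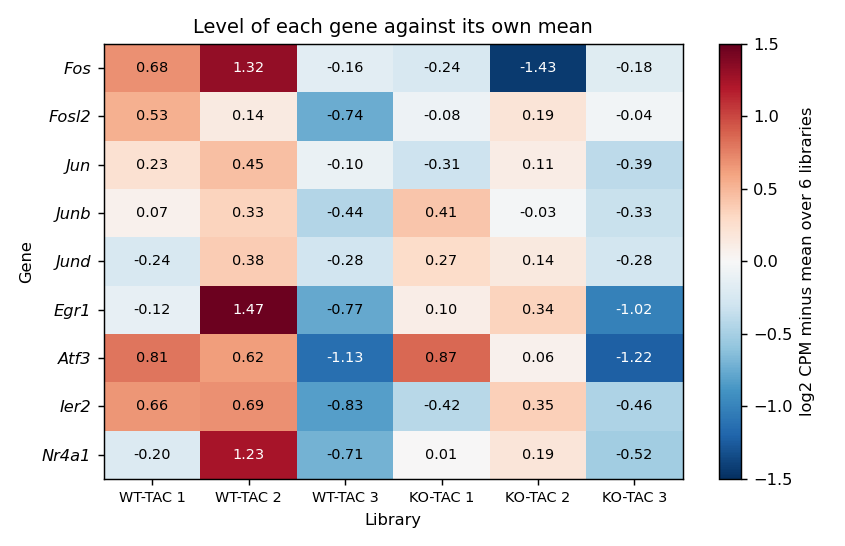
Log2 CPM of the 9 tested genes in each library minus the gene's mean over the 6 libraries (red above the mean, blue below). WT-TAC replicate 2 is above the mean for all 9 genes, and WT-TAC replicate 3 and KO-TAC replicate 3 are below it for all 9.

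Levels can be set between genes only per length, here as RPKM, CPM divided by the kilobases of annotated exon. Jund was highest, at 47.6 ± 13.0 RPKM in the WT-TAC hearts and 50.3 ± 9.55 in KO-TAC (SD, n = 3), and Jun next, at 42.0 ± 7.90 and 32.0 ± 6.30. These 2 did not differ from each other beyond their spread in WT-TAC, while in KO-TAC the lowest Jund library (39.7) was just above the highest Jun library (39.2). After a wide gap came Ier2 (11.02 ± 5.34 and 8.03 ± 2.79), Egr1 (9.33 ± 7.74 and 6.18 ± 2.65), Junb (7.66 ± 2.01 and 7.82 ± 2.095), Atf3 (6.84 ± 3.88 and 6.0 ± 3.90), Nr4a1 (7.01 ± 5.20 and 5.17 ± 1.25) and Fosl2 (4.79 ± 1.95 and 4.67 ± 0.489). Within this middle run neighbours did not differ beyond their spread. Fos had a lower mean, at 3.90 ± 1.94 and 1.57 ± 0.690, and Fosb the lowest, at 0.486 ± 0.649 and 0.141 ± 0.107. In WT-TAC Fos did not differ from Fosl2 beyond their spread, with Fos higher in replicate 2 (5.90 against 5.04). In KO-TAC the highest Fos library (2.01) was below the lowest Fosl2 library (4.33).

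The pool of AP-1 subunit transcripts was mostly JUN family. Of the summed RPKM of the 6 subunits, Jun, Junb and Jund made up 89.8%, 90.9% and 94.1% in the WT-TAC libraries and 93.7%, 94.2% and 91.8% in KO-TAC. The genotypes interleaved. The Jund share was 40.0%, 46.8% and 47.1% in WT-TAC and 55.9%, 50.2% and 49.7% in KO-TAC. Each KO-TAC library had the larger Jund share, by 2.59 percentage points at the closest pair. Jun made up 41.9%, 37.0% and 40.3% in WT-TAC and 28.1%, 37.1% and 34.6% in KO-TAC, where KO-TAC replicate 2 was just above WT-TAC replicate 2. Within the FOS family Fosl2 held 63.5%, 41.4% and 55.2% in WT-TAC and 66.5%, 85.4% and 68.4% in KO-TAC. Every KO-TAC share was above every WT-TAC share, along with the lower Fos there. The exact permutation test, two-sided, of 3 against 3 libraries cannot go below a p of 0.10, and that is its value for both the Jund and the Fosl2 share. It gave 0.20 for the Jun share and 0.30 for the JUN family share, and adjusted over these 4 shares the Jund and Fosl2 values were 0.20. The test was not planned and took only some of the shares computed. With that floor it could not decide whether a share differed between genotypes. These shares are RNA and say nothing of protein or of which dimers formed.

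**Figure D4:**
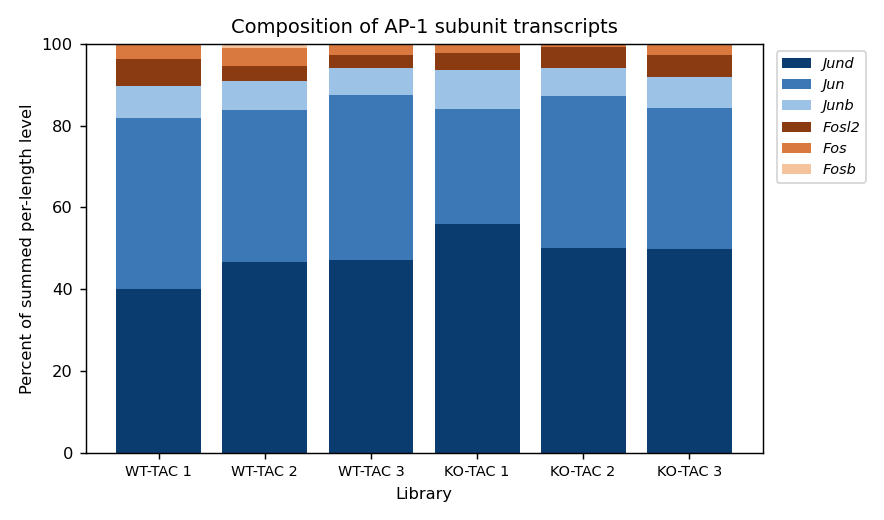
Share of each AP-1 subunit in the summed per-length level of the 6 subunit transcripts, by library, with JUN family members in blue and FOS family members in brown. JUN family transcripts make up 89.8% to 94.2% of each bar.

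Other immediate early genes had no common direction. Of 46 listed, 42 were tested, 22 with log2 fold changes above 0 and 20 below, with a median of 0.064 and 0 called. At an unadjusted p under 0.05 in edgeR there were 3, all lower in KO-TAC, beside 2.93% of all tested genes. The groups did not overlap for 2 of the 42, beside 7.98% of all tested genes. Zfp36, which encodes a protein that speeds the decay of short-lived mRNAs, stood at 24.1, 26.9 and 21.4 CPM in the WT-TAC hearts and 11.4, 15.6 and 13.3 in KO-TAC, without overlap. The log2 fold change of −0.84 ± 0.26 (SE) had an unadjusted p of 0.00554 and an adjusted p of 0.999 in edgeR. Ier3 had −1.06 ± 0.41 and Per1, a clock gene that is also induced early, −1.12 ± 0.42, and the groups overlapped for both. Per1 was at −1.79 without KO-TAC replicate 2, with an adjusted p of 0.0715 in edgeR. Against 12.7% of all tested genes, WT-TAC replicate 2 was the highest library for 14 of the 42. Among them were Dusp1, a phosphatase that ends kinase signalling, at 36.8, 85.7 and 23.0 CPM in the WT-TAC hearts and 28.1, 42.0 and 43.1 in KO-TAC, and Rhob at 80.1, 158 and 97.2 against 109, 106 and 108. Both were chosen as examples after their values were seen. The other EGR factors were low: Egr2 at 0.822 to 5.16 CPM, Egr3 at 1.10 to 11.3, and Egr4 listed at 0 in all 6 libraries. Fosl1, the remaining FOS family gene, had at most 0.296 CPM.

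Partners, regulators and targets were also without calls. Of 16 tested AP-1 partners and inhibitors 12 were below 0 (median −0.11), the lowest p values being for Atf1 (−0.36 ± 0.22), Atf2 (−0.33 ± 0.21) and Maf (−0.43 ± 0.28). Of 30 upstream kinases and factors 19 were below 0 (median −0.066). Map2k6, a kinase that activates p38, stood at 4.88, 9.76 and 7.26 CPM in the WT-TAC hearts and 4.09, 2.67 and 2.66 in KO-TAC, without overlap, a log2 fold change of −1.22 ± 0.46. Mapk10, a JNK gene, had −0.44 ± 0.26 and Crtc3, a CREB coactivator, 0.39 ± 0.23, also without overlap. The groups did not overlap for 5 of the 30 upstream genes, beside 7.98% of all tested genes. Of 18 tested AP-1 and EGR targets 10 were above 0 (median 0.048). Spp1, encoding osteopontin, had −1.30 ± 0.64, Mmp3, a matrix protease, −1.02 ± 0.52, and Vegfa 0.39 ± 0.20, at 266 to 395 CPM in the WT-TAC hearts and 414 to 441 in the KO-TAC hearts. Without WT-TAC replicate 1, Spp1 was at −0.49 and Mmp3 at −0.28. In edgeR each of these genes had an adjusted p of 0.999 with all libraries.

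Of 10 stress-inducible heat shock genes tested, 8 were above 0 (median 0.21) with 0 called. WT-TAC replicate 2 was the highest library for 12.7% of all tested genes and for 0 of these 10. Their summed level was 2321, 2002 and 1987 CPM in the WT-TAC hearts and 2313, 2545 and 2439 in the KO-TAC hearts. The lowest p values were for Hspb1 (0.48 ± 0.26), Hsph1 (0.31 ± 0.19) and Hsp90aa1 (0.31 ± 0.23), with adjusted p of 0.999.

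**Figure D5:**
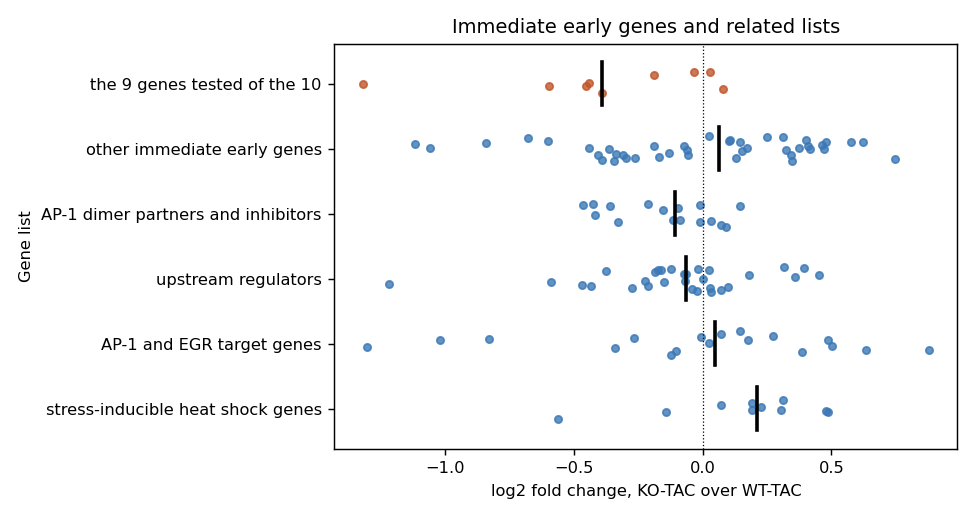
Log2 fold change of KO-TAC over WT-TAC for each tested gene of the 10 described here (orange) and of 5 related lists (blue), with a black bar at each median. The medians are −0.39 for the genes described here, 0.064 for other immediate early genes and 0.21 for heat shock genes, and the other lists lie between −0.11 and 0.048.

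Among markers of the cell types in the heart, those of smooth muscle also had a high WT-TAC replicate 2. It was the highest library for 5 of 8 smooth muscle markers, beside 12.7% of all tested genes. The same library was highest for 1 of 10 endothelial, 0 of 10 fibroblast, 0 of 10 macrophage and 0 of 10 cardiomyocyte markers. The smooth muscle sum was mostly Des, so it mainly followed that gene and says little of the other markers in the list. It was 4714, 4045 and 3350 CPM in the WT-TAC hearts and 3925, 6099 and 3223 in KO-TAC. Its highest library was thus KO-TAC replicate 2, and the genotypes overlapped. Of the 8 markers 7 were below 0 (median −0.67, 0 called). With 1 library left out their median ran from −0.88 (without KO-TAC replicate 1) to −0.32 (without KO-TAC replicate 3). The groups did not overlap for 3 of the 8, beside 7.98% of all tested genes. In edgeR 2 of the 8 had an unadjusted p under 0.05, as did 2.93% of all tested genes. Acta2, smooth muscle actin, stood at 75.5, 92.8 and 64.0 CPM in the WT-TAC hearts and 66.2, 58.9 and 22.2 in KO-TAC, which overlapped. The summed levels overlapped between genotypes for fibroblast (2853 to 4036 and 2240 to 5225 CPM), macrophage (281 to 331 and 236 to 440) and epicardial and mesothelial markers (24.3 to 97.5 and 18.03 to 58.7). Epicardial and mesothelial markers were below 0 for 8 of 8 (median −0.70, 0 called), and the median was 0.18 without WT-TAC replicate 3. Atrial markers summed to 843 to 1158 CPM in the WT-TAC hearts and 291 to 1317 in the KO-TAC hearts. Of 7 tested, 7 were below 0 (median −0.38, 0 called). With 1 library left out the median ran from −0.94 (without KO-TAC replicate 1) to −0.078 (without KO-TAC replicate 3). The summed level of 10 endothelial markers was 1090 to 1280 CPM in the WT-TAC hearts and 1365 to 1558 in the KO-TAC hearts. These sums did not overlap. Among single endothelial markers the groups did not overlap for 2 of 10, beside 7.98% of all tested genes. Of the 10, 9 were above 0, beside 50.2% of all tested genes, and 0 were called. An unadjusted p under 0.05 in edgeR was found for 2 of the 10, beside 2.93% of all tested genes. The part of cell composition in the levels of the 10 genes was not tested.

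The genes outside the group with the most similar profile were ranked by their distance from the mean centred profile of the 9 tested genes, the root mean square of the difference in log2 CPM over 6 libraries. Of 10420 candidates the nearest were Cd33 (0.097), Rtn4rl1 (0.14), Nfatc2ip (0.15), Ptpre (0.16), Smtn (0.17), Ywhah (0.17), Mbd6 (0.17) and Slc22a15 (0.17). The 9 tested genes lay from 0.25 (Junb) to 0.70 (Fos) from their own mean, and the median candidate was at 0.53. The 8 were picked as the smallest distances of all candidates, so that they lie nearer than the 9 genes follows from that choice. None of these 8 is an immediate early gene of the lists used here. Smtn, a smooth muscle marker, stood at 152, 184 and 102 CPM in the WT-TAC hearts and 152, 153 and 93.1 in KO-TAC.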

How the data were processed

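Per the file headers and values, the authors deposited raw counts, whole numbers per gene symbol for 6 libraries, with no normalization. Per the submitters' processing notes, HISAT2 2.1.0, Subread, FastQC and edgeR were used with mouse build GRCm38 (mm10), without saying what each did. The labels allow a plain or a stranded library kit and do not say which sample had which. Counts were fitted with edgeR 4.0.16 in R 4.3.3: filterByExpr (minimum count 10), TMM scaling, a robust quasi-likelihood fit of genotype with no covariate, and Benjamini-Hochberg adjustment over all 12487 tested genes, called at 0.05. Standard errors divide the size of the log2 fold change by the root of F, and 95% intervals use the t quantile of the test. CPM use TMM-scaled library sizes, and log2 CPM a prior count of 2. The fit was tested on simulated data.

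Members and gene lists were chosen with earlier results of these data known. Named besides the 10 genes are the 3 smallest p values of each related list and the 8 nearest profiles. Others fall outside that rule and were chosen after their values were seen: Cacna1h and Prdx2 as checks, Dusp1 and Rhob as examples, the remaining EGR and FOS genes, and Des, Acta2 and the globin genes among markers. Gene positions, exon lengths and UTRs come from GENCODE M21. No 2 libraries agreed within sampling noise (median chi-square 2.999 to 7.12, noise 0.455). The alternatives tried were no scaling, RLE and upper-quartile scaling, no filter or a stricter one (50 counts in 3 libraries), DESeq2 1.42.0, limma-voom (limma 3.58.1) with and without quality weights, a replicate block and each library left out.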

Additional observations from a re-analysis of the deposited data

How the results depend on the processing

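None of the 10 genes was called under any of the 15 alternatives. Over all genes the number called was 3 with all 6 libraries, 21 without a filter, 16 in DESeq2, 0 in limma-voom (376 at an unadjusted p under 0.05) and 6 with the replicate block. With 1 library left out it ran from 0 (without WT-TAC replicate 1, 437 at an unadjusted p under 0.05) to 7 (without KO-TAC replicate 2), with 6 without KO-TAC replicate 3. Whether replicate numbers pair the samples could not be settled. Deviations of same-numbered libraries correlated at 0.13, 0.011 and 0.26, the last being the highest of all pairs across genotypes. Differently numbered pairs ran from −0.22 to 0.15, and WT-TAC replicate 1 correlated more with KO-TAC replicate 2 (0.15) than with KO-TAC replicate 1. With the replicate block 574 genes had an unadjusted p under 0.05 in edgeR, against 366 without it. Directions that turned belonged to uncalled genes. The log2 fold change of Fosl2 was 0.062 in limma-voom, 0.12 with quality weights and 0.043 with the replicate block. Leave-one-out ranges were −0.31 to 0.26 for Fosl2, −0.20 to 0.22 for Junb, −0.038 to 0.33 for Jund, −0.77 to 0.20 for Atf3, −0.97 to 0.34 for Egr1 and −0.78 to 0.36 for Nr4a1, and for the median of the 10 genes −0.69 to 0.0045. For similar profiles they were −0.46 to 0.039 for Rtn4rl1, −0.66 to 0.017 for Nfatc2ip, −0.34 to 0.061 for Smtn, −0.36 to 0.036 for Ywhah and −0.54 to 0.073 for Slc22a15. Fos was below 0 in all 14 alternatives that tested it, from −1.67 to −0.88, with adjusted p from 0.750 to 1.00; the stricter filter removed it. The cause of these shifts was not tested. Low counts limit Fosb, with 96 counts in all, and Fos, with 290.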
